A study of Mus musculus with 4 samples.

Results

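The small leucine-rich proteoglycans and a few larger proteoglycans of the heart matrix were examined in hearts of Klf9 KO and wild-type (WT) mice. The set held 10 genes, taken by symbol from a table of 17485 genes: Dcn, Bgn, Aspn, Lum, Fmod, Prelp, Ogn, Vcan, Hapln1 and Gpc3. All 10 were in the table, and 9 passed the filter on low values, which kept the 12135 genes that reached a value of 1 in 2 libraries or more. Whole-heart total RNA was sequenced, with 2 Klf9 KO libraries and 2 WT libraries labelled as male mice aged 8 weeks, to see how Klf9, a zinc finger transcription factor, bears on the mitochondria of the heart. The labels give no allele, strain or cell type for the knockout, and they do not tie each library to an animal of its own, so that the p-values reflect the spread among these 4 libraries, part of which may be technical.

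Proteoglycans are core proteins that carry glycosaminoglycan chains. The small leucine-rich proteoglycans bind collagen fibrils through a curved repeat domain and set how thick the fibrils grow and how far apart they lie. Versican (Vcan), its partner the link protein Hapln1, and hyaluronan build the loose, hydrated matrix of the embryonic heart and its cushions, whereas decorin (Dcn), lumican (Lum) and osteoglycin (Ogn) belong to the collagen-rich matrix of the grown heart. In the adult heart fibroblasts make most of these transcripts. In bulk tissue fewer cells of a type and less RNA per cell cannot be told apart.

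The deposited table held log2 ratios between libraries and no counts, so the depth of each library is unknown. The values below were recovered from those ratios and their unit is not known. They summed to 409359 and 418974 in the Klf9 KO libraries and to 426032 and 489534 in the WT libraries, and a value of 0.01 is their smallest step, which may stand for 0. Klf9 itself had values of 2.66 and 1.99 in Klf9 KO hearts and 74.9 and 58.8 in WT hearts. Klf9 KO replicate 2 went against its label of male: the Y-linked genes Kdm5d and Ddx3y stood at 0.01 there, against at least 3.42 in each of the other libraries. The Y-linked Eif2s3y and Uty were low there but above that step, with 0.73 and 0.58, against at least 23.6 and 3.57 in each of the other libraries. Each call below was therefore also made without that library. The groups also differed in Esr1, the estrogen receptor alpha gene, with 0.09 and 0.03 in Klf9 KO hearts and 3326 and 2726 in WT hearts. Whether the WT values stem from the gene itself or from an introduced construct that carries part of it cannot be told from this table, and the labels name no construct, so the genetic state of the WT group is in doubt. The groups differed as well in Tnni1, a troponin of the heart before birth, with 656 and 994 in Klf9 KO hearts and 0.16 and 0.01 in WT hearts. The part of these differences in the results below was not tested.

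Of the 9 proteoglycan genes tested, 3 rose in Klf9 KO hearts (Gpc3, Fmod and Vcan), 1 fell (Dcn) and 5 did not pass (limma adjusted p below 0.05, fitted on log2(value + 1) and adjusted by Benjamini-Hochberg over all genes tested). Across all 12135 genes tested, 27.7% rose and 17.0% fell, so that the 4 calls among 9 genes were close to the background of 44.7%. After RLE scaling of the libraries the counts over all genes were 2617 higher and 2618 lower in place of 3367 and 2061, and the counts of proteoglycan genes remained 3 and 1. The median log2 fold change was -0.06 over the 9 genes and 0.12 over all genes tested. RLE scaling moved the median over all genes to -0.015. Both Klf9 KO libraries lay above both WT libraries in 3 of the 9 genes and below them in 4, where 45.2% and 30.2% of all genes tested did so. Together these were 7 of 9 genes with groups that did not overlap, against 75.4% of all genes tested. Without Klf9 KO replicate 2 fewer genes passed, among the proteoglycan genes as among all genes tested. Vcan (log2 fold change 0.76) and Dcn (-1.08) no longer passed, while their fold changes stayed close to those with all libraries (0.81 and -1.16). Where a library is left out, its group has 1 library, which is assumed to vary like the other group: without a Klf9 KO library the spread is that of the WT libraries, and without a WT library it is that of the Klf9 KO libraries, which lay closer together in each of the 9 genes tested.

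**Figure D1:**
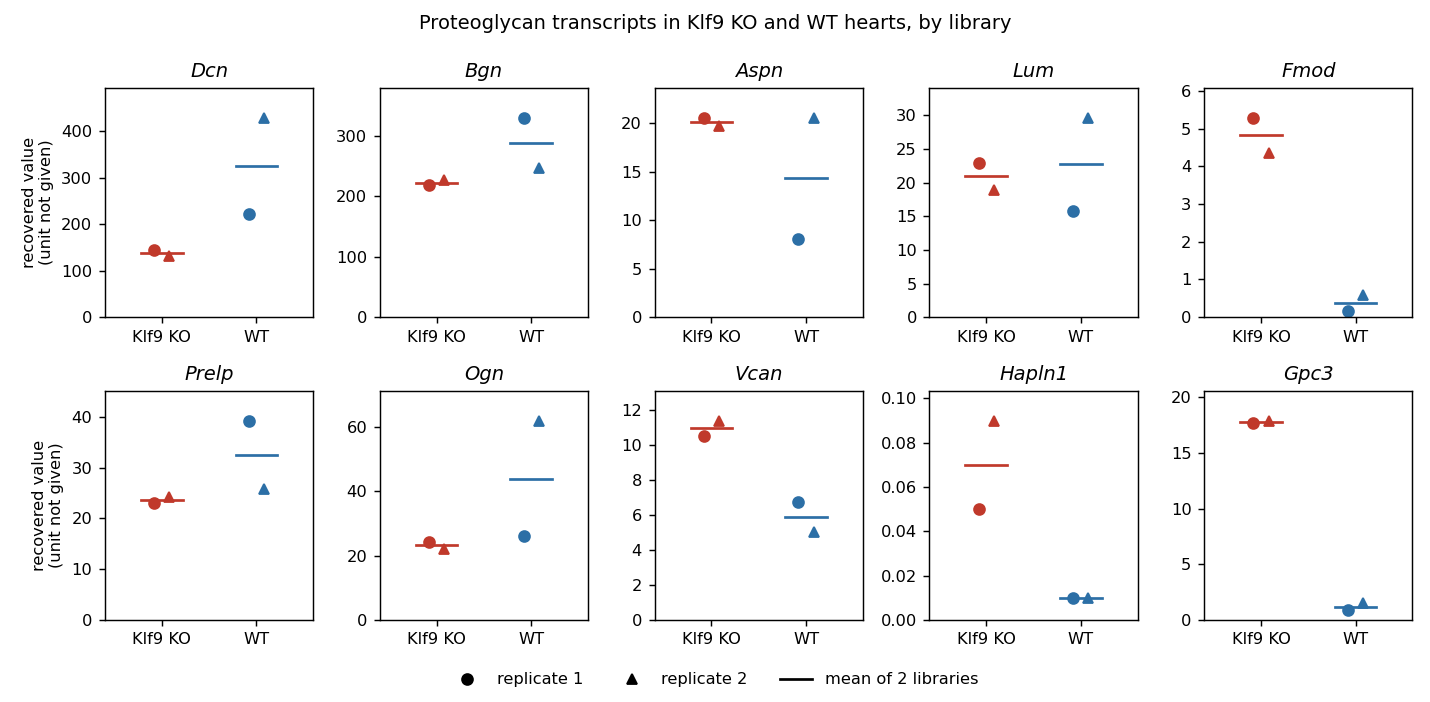
Recovered value (y axis, unit not given, each panel with its own scale from 0) of the 10 proteoglycan genes in the 2 Klf9 KO libraries (left) and the 2 WT libraries (right), with a line at the mean of each group. Gpc3, Fmod and Vcan lie higher and Dcn lower in both Klf9 KO libraries, and the WT libraries lie apart in Dcn, Aspn, Lum and Ogn.

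Among the class I small leucine-rich proteoglycans, Dcn (Entrez 13179), which limits the width of collagen fibrils and binds TGF-beta, had values of 145 and 131 in Klf9 KO hearts and 221 and 429 in WT hearts. Both Klf9 KO libraries lay below both WT libraries, and the WT libraries themselves differed 1.94-fold. The means were 138 ± 9.81 in Klf9 KO hearts and 325 ± 147 in WT hearts (SD, n = 2 each). The log2 fold change was -1.16 ± 0.30 (SE, limma adjusted p = 0.0142), and it was -0.68 without WT replicate 2, a fit whose spread comes from the Klf9 KO libraries alone. Biglycan (Bgn, Entrez 12111), the closest relative of decorin and an X-linked gene, had values of 218 and 227 in Klf9 KO hearts and 330 and 247 in WT hearts. The Klf9 KO libraries were the lower ones for Bgn, but the change did not pass (log2 fold change -0.36 ± 0.23, limma adjusted p = 0.229). Asporin (Aspn, Entrez 66695), which also binds collagen, had values of 20.5 and 19.7 in Klf9 KO hearts and 8.09 and 20.6 in WT hearts. The groups overlapped, as WT replicate 2 was level with the Klf9 KO libraries, and the log2 fold change of 0.59 ± 0.34 did not pass (limma adjusted p = 0.187).

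Class II held the widest range. Fibromodulin (Fmod, Entrez 14264), which binds collagen and takes part in the assembly of fibrils, had values of 5.28 and 4.36 in Klf9 KO hearts and 0.17 and 0.59 in WT hearts. Both Klf9 KO libraries were far above both WT libraries, and the ratio of the means was 12.7. On the log2(value + 1) scale, which understates changes of genes this low, the fold change was 2.09 ± 0.20 (SE, limma adjusted p = 7.85e-05), and it was 2.20 without Klf9 KO replicate 2 and 3.5 with a pseudocount of 0.1. Fmod passed the filter only through its Klf9 KO values, so a fall from its WT values could not have been tested. Lum (Entrez 17022), which spaces collagen fibrils and shares binding sites with fibromodulin, had values of 22.9 and 18.9 in Klf9 KO hearts and 15.8 and 29.6 in WT hearts. Here the Klf9 KO libraries lay between the WT libraries, and the log2 fold change was -0.06 ± 0.28 (limma adjusted p = 0.888). Prelp (Entrez 116847), which links collagen to the basement membrane proteoglycan perlecan, had values of 23.0 and 24.2 in Klf9 KO hearts and 39.3 and 25.7 in WT hearts. The groups did not overlap, and the change did not pass (log2 fold change -0.42 ± 0.22, limma adjusted p = 0.161).

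In class III, Ogn (Entrez 18295), a small proteoglycan of the fibrous matrix, had values of 24.3 and 22.1 in Klf9 KO hearts and 25.9 and 62.0 in WT hearts. The Klf9 KO libraries were lower than both WT libraries, only slightly so against WT replicate 1, and the log2 fold change of -0.77 ± 0.34 did not pass (limma adjusted p = 0.0958). The 7 small leucine-rich proteoglycans thus spanned log2 fold changes of -1.16 to 2.09.

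How far the class I to III genes stood from WT depended on which WT library they were set against. In the authors' deposited table the ratios of Ogn were -0.10 and -0.23 against WT replicate 1 and -1.35 and -1.49 against WT replicate 2. Those of Aspn in the authors' deposited table were 1.34 and 1.29 against WT replicate 1 but close to 0 against WT replicate 2, and those of Lum were 0.54 and 0.26, against -0.37 and -0.65. Prelp and Bgn went the other way round, with deposited ratios nearer 0 against WT replicate 2. Without WT replicate 1 the log2 fold changes were -0.49 in Lum and -1.38 in Ogn. Without WT replicate 2 they were -0.56 in Bgn, -0.71 in Prelp and 1.22 in Aspn. These 5 values lay past the threshold in the fits with 1 WT library, but such a fit holds no spread between WT libraries, and none of the 5 genes passed with both unless a replicate block was added. The Klf9 KO libraries differed from each other by at most 1.22-fold in these 7 genes, whereas the WT libraries differed by 1.34-fold to 3.47-fold.

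**Figure D2:**
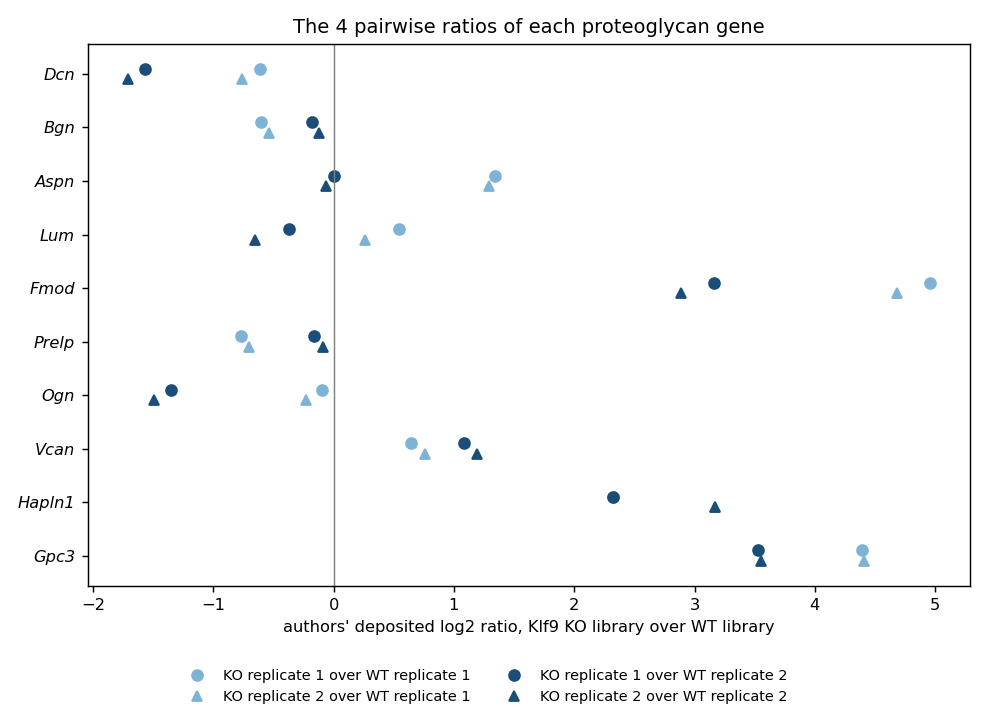
The 4 log2 ratios that the authors deposited for each gene, Klf9 KO library over WT library (x axis), with colour for the WT library and shape for the Klf9 KO library. All 4 ratios are positive in Fmod, Vcan, Hapln1 and Gpc3 and negative in Dcn, Bgn, Prelp and Ogn, while Aspn and Lum have both signs. In Hapln1 the ratios to both WT libraries coincide.

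Of the large hyaluronan-binding matrix, Vcan (Entrez 13003) rose, with values of 10.5 and 11.4 in Klf9 KO hearts and 6.75 and 5.0 in WT hearts. Both Klf9 KO libraries lay above both WT libraries, with means of 11 ± 0.608 in Klf9 KO hearts and 5.88 ± 1.24 in WT hearts (SD, n = 2 each). The log2 fold change was 0.81 ± 0.19 (SE, limma adjusted p = 0.00771) and 0.76 without Klf9 KO replicate 2 (limma adjusted p = 0.0739). Hapln1 (Entrez 12950), the link protein that ties versican to hyaluronan, was barely detected, with 0.05 and 0.09 in Klf9 KO hearts and 0.01 in each WT library. It did not pass the filter and was not tested. Its ratios in the authors' deposited table, 2.32 and 3.17, rest on a WT value that may stand for 0, and the authors' Poisson p-values for the 4 pairs lay between 0.0204 and 0.194.

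Gpc3 (Entrez 14734), an X-linked glypican that carries heparan sulphate at the cell surface, restrains growth and is known for high levels in embryonic tissue, had the largest log2 fold change of the 9 genes tested. Its values were 17.7 and 17.9 in Klf9 KO hearts and 0.84 and 1.53 in WT hearts. As 1 WT value was under 1, Gpc3 passed the filter only with the help of its Klf9 KO values. A fall to under 1 in both Klf9 KO libraries could thus not have been tested. The Klf9 KO libraries were nearly equal and both far above the WT libraries, with a ratio of the means of 15.0. The log2 fold change was 3.12 ± 0.20 (SE, limma adjusted p = 1.33e-05), and it was 3.11 without Klf9 KO replicate 2. In the table that the authors deposited, 9 of the 10 genes had a DEGseq q below 0.05, where 70.0% of all genes with a q did, and Lum was the exception. The 9 included Hapln1 (DEGseq q = 0.00489), at 0.01 in each WT library, and Aspn (DEGseq q = 6.41e-19), whose groups overlapped.

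Promoter windows of RefSeq (build GRCm38.p6) were read for the genes that rose, since Klf9 belongs to a family of factors that bind GC-rich boxes. The windows run from 250 bases before to 50 bases after the gene start, 5′ to 3′ on the gene's strand, and 8 of the 10 genes were matched in the RefSeq table (not Dcn or Lum). Capitals mark GGGCGG, or CCGCCC where the box is on the other strand. Gpc3 lies on the minus strand at chrX:52613925-52614224, Vcan on the minus strand at chr13:89742463-89742762 and Fmod on the plus strand at chr1:134037004-134037303. Prelp, the neighbour of Fmod that did not pass, is shown beside it and lies on the minus strand at chr1:133921352-133921651.
Gpc3: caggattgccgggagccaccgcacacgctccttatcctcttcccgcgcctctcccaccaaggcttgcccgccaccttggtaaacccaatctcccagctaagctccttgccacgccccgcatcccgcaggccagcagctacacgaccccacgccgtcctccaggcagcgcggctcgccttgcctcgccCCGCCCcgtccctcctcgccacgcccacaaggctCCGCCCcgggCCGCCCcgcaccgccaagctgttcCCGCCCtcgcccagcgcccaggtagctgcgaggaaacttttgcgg
Vcan: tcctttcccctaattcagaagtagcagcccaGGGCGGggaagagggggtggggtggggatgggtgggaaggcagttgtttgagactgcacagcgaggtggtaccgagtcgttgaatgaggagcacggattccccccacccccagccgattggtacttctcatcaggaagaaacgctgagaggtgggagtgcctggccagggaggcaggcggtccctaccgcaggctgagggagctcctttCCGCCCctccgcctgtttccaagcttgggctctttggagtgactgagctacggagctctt
Fmod: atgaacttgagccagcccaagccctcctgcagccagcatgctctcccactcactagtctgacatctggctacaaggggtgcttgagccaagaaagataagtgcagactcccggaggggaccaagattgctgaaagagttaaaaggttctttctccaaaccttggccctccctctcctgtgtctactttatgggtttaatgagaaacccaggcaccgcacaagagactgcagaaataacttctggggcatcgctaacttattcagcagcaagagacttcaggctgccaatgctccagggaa
Prelp: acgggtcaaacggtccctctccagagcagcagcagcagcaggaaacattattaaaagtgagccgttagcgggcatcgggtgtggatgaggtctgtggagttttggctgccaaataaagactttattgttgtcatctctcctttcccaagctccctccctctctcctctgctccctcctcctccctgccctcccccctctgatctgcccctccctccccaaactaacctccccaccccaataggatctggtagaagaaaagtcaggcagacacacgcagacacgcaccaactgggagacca

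The box was matched 4 times in the window of Gpc3, 2 times in that of Vcan and 3 times in that of Bgn, and the windows of Fmod, Prelp, Aspn, Ogn and Hapln1 did not hold these letters. Of the genes that rose, Gpc3 and Vcan thus had a match and Fmod had none, while Bgn had a match and did not pass. Among all 32817 windows of the same length, 35.6% held it. A shorter box of the same family, CACCC or GGGTG on the other strand, which can overlap the first by its G or C run, was in 7 of the 8 windows and in 57.5% of all windows. A match is a run of letters in the reference and no evidence of binding. G and C made up 70.7% of the window of Gpc3, 61.0% of that of Vcan and 51.0% of that of Fmod, against a median of 52.7% over all windows.

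Most of these genes lie in small family clusters on the chromosome. In the RefSeq order of protein-coding genes, Dcn and Lum are followed on chromosome 10 by Kera and Epyc, their relatives of cornea and cartilage. Dcn fell and Lum did not pass, while Kera had 0.01 and 0.05 in Klf9 KO hearts and 0.01 in each WT library, and Epyc had 0.01 and 0.08 in Klf9 KO hearts and 0.01 in each WT library. On chromosome 13 the order is Ecm2, Aspn, Omd and Ogn. Ecm2 had values of 3.69 and 2.93 in Klf9 KO hearts and 2.81 and 3.45 in WT hearts and did not pass (log2 fold change 0.06, and -0.06 after RLE scaling, limma adjusted p = 0.814 and 0.822). Omd stayed under the filter, with 0.71 and 0.73 in Klf9 KO hearts and 0.53 and 0.86 in WT hearts. On chromosome 1 Fmod rose next to Prelp, which did not pass, and Optc beyond Prelp stood at 0.17 and 0.17 in Klf9 KO hearts and 0.05 and 0.07 in WT hearts. The ratio of Fmod to Prelp within a library was 0.230 and 0.180 in Klf9 KO hearts and 0.00433 and 0.0229 in WT hearts. Vcan lies next to Hapln1 on chromosome 13, and Gpc3 next to Gpc4 on the X chromosome. Gpc4 rose as well, with 14.5 and 13.1 in Klf9 KO hearts and 10.6 and 6.40 in WT hearts (log2 fold change 0.67 ± 0.23, SE, limma adjusted p = 0.0397), but it did not pass after RLE scaling (limma adjusted p = 0.102) or without Klf9 KO replicate 1 (0.172), Klf9 KO replicate 2 (0.0926) or WT replicate 2 (0.0625). These neighbours are named for their position, after their values were seen.

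Set against each other within a library, the proteoglycans of young matrix (Vcan, Gpc3 and Hapln1) were higher relative to those of mature matrix (Dcn, Lum and Ogn) in both Klf9 KO libraries than in either WT library. The mean log2(value + 1) of the young set was 2.61 and 2.67 in Klf9 KO hearts and 1.28 and 1.31 in WT hearts. That of the mature set was 5.48 and 5.29 in Klf9 KO hearts and 5.54 and 6.55 in WT hearts. The young set was thus apart between the groups, and the mature set was only a little lower in the Klf9 KO libraries than in WT replicate 1. The young set minus the mature set came to -2.87 and -2.63 in Klf9 KO hearts and to -4.26 and -5.24 in WT hearts, with means of -2.75 ± 0.17 in Klf9 KO hearts and -4.75 ± 0.70 in WT hearts (SD, n = 2 each). The unit may not be per length, so only the difference of these values between libraries can be read. It was 2.0 on the log2 scale, made up of 1.34 in the young set and -0.66 in the mature set. No test is given, as the sets were chosen with results known and 2 against 2 libraries cannot go below a two-sided exact permutation p of 0.33. The log2 differences between the groups were 0.08 in Hapln1, 0.81 in Vcan and 3.12 in Gpc3, and -0.06 in Lum, -0.77 in Ogn and -1.16 in Dcn.

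**Figure D3:**
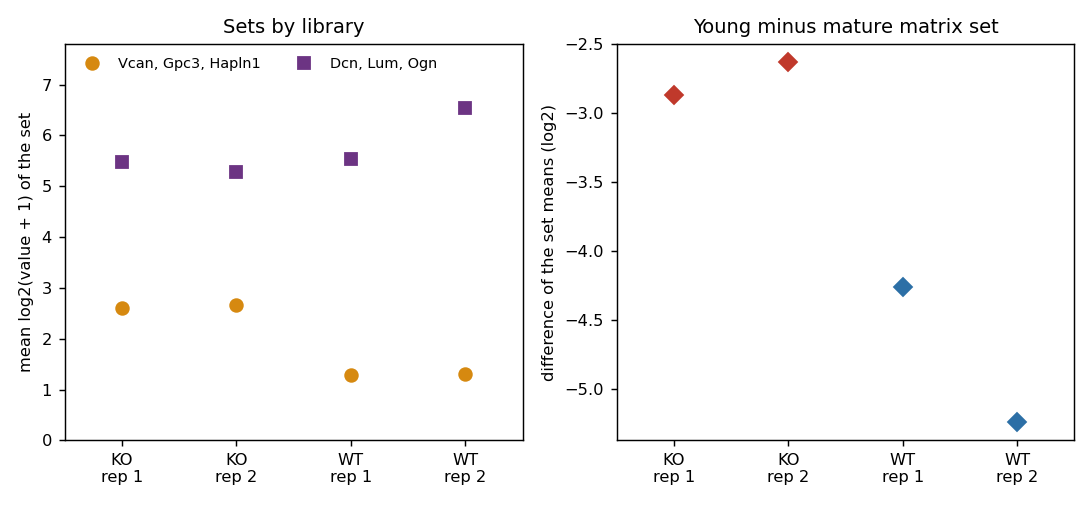
Left, mean log2(value + 1) of Vcan, Gpc3 and Hapln1 and of Dcn, Lum and Ogn in each library. Right, the first set minus the second (log2), which is -2.87 and -2.63 in the Klf9 KO libraries and -4.26 and -5.24 in the WT libraries.

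The ratios of Vcan and of Gpc3 to each of Dcn, Lum and Ogn within a library are built from the same values and show how the set difference is made up. Vcan over Dcn was 0.0728 and 0.0871 in Klf9 KO hearts and 0.0305 and 0.0117 in WT hearts. Vcan over Lum was 0.460 and 0.604 in Klf9 KO hearts and 0.427 and 0.169 in WT hearts, and Vcan over Ogn was 0.434 and 0.517 in Klf9 KO hearts and 0.260 and 0.0807 in WT hearts. Both Klf9 KO libraries were thus higher in each ratio of Vcan, but WT replicate 1 was close to Klf9 KO replicate 1 in that to Lum. Gpc3 over Dcn was 0.122 and 0.137 in Klf9 KO hearts and 0.00380 and 0.00357 in WT hearts. Gpc3 over Lum was 0.770 and 0.949 in Klf9 KO hearts and 0.0532 and 0.0517 in WT hearts, and Gpc3 over Ogn was 0.728 and 0.811 in Klf9 KO hearts and 0.0324 and 0.0247 in WT hearts. The ratios of Gpc3 were far apart between the groups whichever of the 3 genes it was set against. Dcn over Bgn, by contrast, was 0.664 and 0.576 in Klf9 KO hearts and 0.671 and 1.74 in WT hearts, so that WT replicate 1 was level with Klf9 KO replicate 1. The collagen to which decorin binds went the other way from Dcn: Col1a1, a chain of type I collagen, had 342 and 422 in Klf9 KO hearts and 67.1 and 32.0 in WT hearts, and Col1a1 over Dcn was 2.36 and 3.23 in Klf9 KO hearts and 0.303 and 0.0746 in WT hearts.

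In the rest of the proteoglycan family and its enzymes, more genes rose than fell. Of 98 genes in 7 lists, 96 were in the table and 66 were tested, of which 30 rose, 9 fell and 27 did not pass. These shares, 45.5% higher and 13.6% lower, stand beside 27.7% and 17.0% among all genes tested, and the median log2 fold change was 0.40 against 0.12. After RLE scaling, with 2617 higher and 2618 lower over all genes, 26 genes of these lists rose and 10 fell. Without Klf9 KO replicate 2 fewer genes of these lists passed, as among all genes tested.

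The counts of each list below are to be read beside the 27.7% higher and 17.0% lower among all genes tested. All 3 heparan sulphate proteoglycans of the basement membrane rose, with a median log2 fold change of 1.62. Col18a1, whose collagen core gives rise to endostatin, had 39.0 and 55.7 in Klf9 KO hearts and 4.74 and 3.38 in WT hearts (log2 fold change 3.25 ± 0.23, SE, limma adjusted p = 1.95e-05). Agrin (Agrn), known from the neuromuscular junction, had 17.5 and 18.7 in Klf9 KO hearts and 7.99 and 6.10 in WT hearts (1.26 ± 0.19). Both genes were named for the lowest p in this list, which fixed that their groups lie apart. The other gene of the list, Hspg2, had 101 and 113 in Klf9 KO hearts and 48.2 and 24.1 in WT hearts (1.62 ± 0.29).

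Of 8 other glypicans and syndecans tested, which are the heparan sulphate proteoglycans of the cell surface, 4 rose, 2 fell and 2 did not pass. Gpc2 (2.76 and 3.05 in Klf9 KO hearts, 0.50 and 0.59 in WT hearts) and Gpc6 (14.5 and 13.9 in Klf9 KO hearts, 5.38 and 3.71 in WT hearts) rose with Gpc3. The log2 fold change of Gpc2 was 1.34, and 2.22 with a pseudocount of 0.1. Gpc1 went the other way, with 41.9 and 49.6 in Klf9 KO hearts and 193 and 152 in WT hearts (log2 fold change -1.89 ± 0.21, SE, limma adjusted p = 0.000211). Sdc4, a syndecan of focal adhesions, fell too (-0.87 ± 0.17). The glypicans that passed therefore went in both directions. Without Klf9 KO replicate 1, Sdc4 did not pass (-0.77, limma adjusted p = 0.0579) and 1 gene of this list fell.

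Of 6 tested genes of hyaluronan and the aggregating proteoglycans, 3 rose, 1 fell and 2 did not pass, and 10 were under the filter. Aggrecan (Acan), a relative of versican best known from cartilage, had 1.31 and 1.71 in Klf9 KO hearts and 0.02 and 0.01 in WT hearts (log2 fold change 1.30 ± 0.15 on the log2(value + 1) scale, and 3.80 with a pseudocount of 0.1). Hmmr, a hyaluronan receptor that also acts in mitosis, rose (1.27 ± 0.18), and Lyve1, a hyaluronan receptor of lymphatic endothelium and resident macrophages, fell, with 2.10 and 3.23 in Klf9 KO hearts and 10.3 and 16.1 in WT hearts. Without WT replicate 2, 2 genes of this list fell. The tested relatives of the small leucine-rich proteoglycans numbered 3: Tsku rose (0.87 ± 0.21), podocan (Podn) fell, with 2.77 and 2.38 in Klf9 KO hearts and 11.6 and 6.87 in WT hearts, and Ecm2 did not pass.

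Of the 5 tested among the remaining proteoglycans, 1 rose, 3 fell and 1 did not pass. Cspg4, known as NG2 and made by pericytes, had 18.4 and 22.6 in Klf9 KO hearts and 5.39 and 3.13 in WT hearts. Prg4, the lubricating proteoglycan of joints and of serous surfaces, had 0.22 and 0.11 in Klf9 KO hearts and 25.2 and 13.9 in WT hearts (log2 fold change -4.09 ± 0.26, SE, limma adjusted p = 1.32e-05, and -6.18 with a pseudocount of 0.1). Serglycin (Srgn), the granule proteoglycan of blood cells, had 13.02 and 13.9 in Klf9 KO hearts and 38.8 and 88.9 in WT hearts. Each of the 3 was named for the lowest p of its direction in this list, which fixed that its groups lie apart.

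The enzymes that build the sugar chains moved upward in 14 of 35 tested genes and downward in 2, and 19 did not pass, with a median log2 fold change of 0.37. Chsy1, which lengthens chondroitin chains, had 7.76 and 9.38 in Klf9 KO hearts and 2.92 and 3.25 in WT hearts. Ndst1, which starts the sulphation of heparan chains, had 30.6 and 29.2 in Klf9 KO hearts and 15.0 and 11.8 in WT hearts. Extl1 (-2.32 ± 0.31) and the sulphate donor enzyme Papss2 (-0.77 ± 0.17) fell. Without either Klf9 KO library in turn, fewer of the 35 genes rose, as among all genes tested. Papss2 did not pass without Klf9 KO replicate 2 (-0.68). Of 6 tested proteases that cut or process proteoglycans, 4 rose and 2 did not pass: Bmp1, which trims the propeptides of biglycan and of collagens, had 50.5 and 53.1 in Klf9 KO hearts and 16.7 and 12.3 in WT hearts, and the aggrecanase Adamts4 had 1.44 and 1.79 in Klf9 KO hearts and 0.37 and 0.20 in WT hearts (log2 fold change 1.02, and 2.18 with a pseudocount of 0.1).

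**Figure D4:**
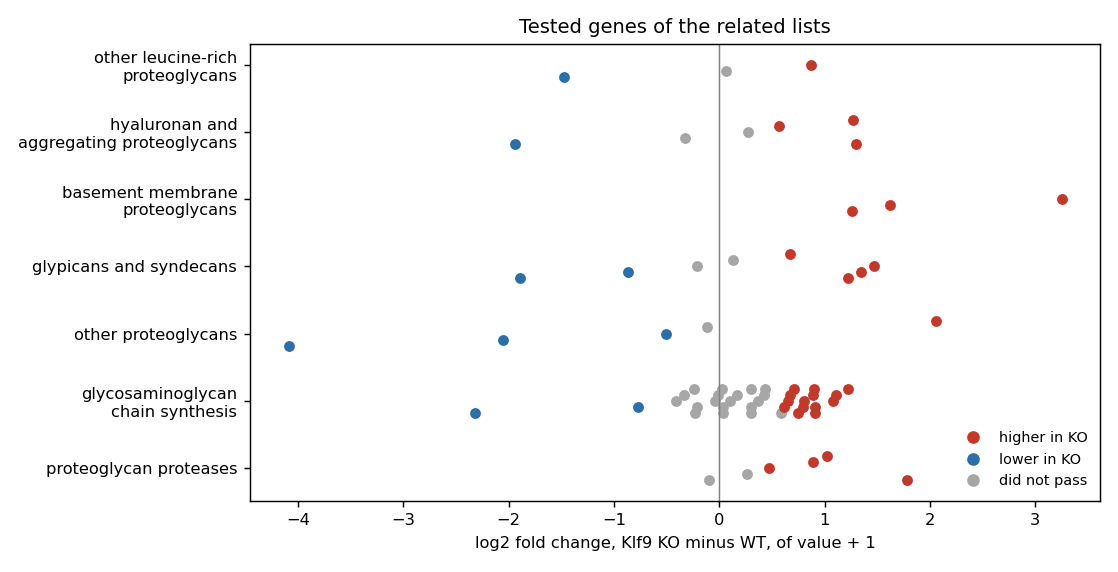
Log2 fold change, Klf9 KO minus WT, of value + 1 (x axis) for the 66 tested genes of the 7 related lists (rows), each point a gene, coloured by whether it rose, fell or did not pass (limma adjusted p below 0.05). All 3 basement membrane genes lie to the right, and Prg4 is the point farthest to the left.

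Markers of the cells that could carry these transcripts were counted in the same way, beside the 27.7% higher and 17.0% lower, or 44.7% in all, among the genes tested. The calls in the lists of fibroblast, epicardial, cell cycle, macrophage, and smooth muscle and pericyte genes made up a larger share than this, those of valve mesenchyme (3 of 7) were close to it, and those of endothelium (2 of 6), cardiomyocytes (1 of 8) and red cells (0 of 6) were below it. After either scaling the counts of endothelium and of smooth muscle and pericyte genes moved, so their places beside this share are not firm. Of 10 fibroblast markers 5 rose, 1 fell (2 after either scaling, with a minimum value of 5 or without WT replicate 2) and 4 did not pass, and their summed value was 1420 and 1641 in Klf9 KO hearts and 859 and 710 in WT hearts. The fibroblast markers of the highest mean went in opposite directions: Vim had 384 and 514 in Klf9 KO hearts and 155 and 160 in WT hearts, and Gsn had 69.2 and 72.2 in Klf9 KO hearts and 419 and 340 in WT hearts. Of 8 epicardial markers all 6 tested rose, and 1 marker was at 0.01 in a WT library. The summed values of the 8 were 55.5 and 55.9 in Klf9 KO hearts and 17.1 and 20.95 in WT hearts. Krt19 was under 1 in both WT libraries, so the filter fixed its direction. Upk3b and Msln, at 0.04 in WT replicate 1, passed the filter only with the help of their Klf9 KO values. Without Klf9 KO replicate 2, 5 of the 6 epicardial markers rose, with a pseudocount of 0.1 it was 4 of 6, and with a minimum value of 5 it was 3 of the 3 then tested. Of 7 tested markers of valve mesenchyme 3 rose (5 without WT replicate 1) and 4 did not pass, with summed values of 67.0 and 69.8 in Klf9 KO hearts and 36.2 and 29.1 in WT hearts. Cell cycle genes rose in 6 of 6 cases, with summed values of 84.8 and 109 in Klf9 KO hearts and 4.99 and 6.73 in WT hearts. Ccnb1, Cdk1 and Aurkb among them were under 1 in both WT libraries, so the filter fixed their direction. Of 8 macrophage markers 7 fell, with summed values of 70.7 and 70.1 in Klf9 KO hearts and 242 and 396 in WT hearts.

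Of 8 smooth muscle and pericyte markers 4 rose and 1 fell, with summed values of 504 and 579 in Klf9 KO hearts and 353 and 407 in WT hearts. The number that rose was 2 after RLE or upper quartile scaling, without the filter and without Klf9 KO replicate 2. The 1 that fell, Rgs5 (log2 fold change -1.03), did not pass without the filter (-1.03, limma adjusted p = 0.0501) or without Klf9 KO replicate 2 (-0.86, limma adjusted p = 0.129). Of 6 endothelial markers 0 fell in the main fit and 1 fell after RLE or upper quartile scaling. The summed values, unscaled, were 467 and 475 in Klf9 KO hearts and 373 and 363 in WT hearts. In each of these fits 2 endothelial markers rose. These were Cdh5 and Tie1, and 0 rose without either Klf9 KO library in turn (limma), with 1 at an unadjusted p below 0.05 in each case. The log2 fold change of Cdh5 was 0.85 with all libraries, 0.88 without Klf9 KO replicate 1 and 0.82 without Klf9 KO replicate 2, and that of Tie1 was 0.72, 0.68 and 0.76 in the same fits. Of 8 cardiomyocyte markers, which place the samples as heart muscle, 1 fell and 7 did not pass, and their summed value was 32467 and 30875 in Klf9 KO hearts and 27391 and 32005 in WT hearts. The 1 that fell was Tnni3 (log2 fold change -0.73, limma adjusted p = 0.0479), and it did not pass without the filter (-0.73), with non-robust moderation (-0.73), without Klf9 KO replicate 1 (-0.72) or without Klf9 KO replicate 2 (-0.74), with limma adjusted p from 0.0599 to 0.365 in these 4. Without WT replicate 1, 3 cardiomyocyte markers rose and 3 fell, without WT replicate 2, 1 rose and 2 fell, and after RLE scaling 2 fell. Tie1, Cdh5, Rgs5 and Tnni3 were named after their values were seen. None of the 6 red cell genes passed (limma), with 2 higher at an unadjusted p below 0.05 (2 passed without WT replicate 1), and their summed values were 18944 and 12513 in Klf9 KO hearts and 11075 and 10829 in WT hearts. The part of these cell types in the proteoglycan results was not tested.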

How the data were processed

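Sample titles gave the groups and replicate numbers. The authors deposited log2 ratios for the 4 pairs of a Klf9 KO and a WT library and for the groups, with p-values and q-values from a Poisson model and DEGseq, per the file headers. The authors also deposited 4 false discovery rate columns, 1 for each pair, treated as scores because 1 of them reaches 1.0014, and these were not used. The aligner, build, unit and depth are not known from the labels or the file. A gene's 4 ratios were additive to within 9.9e-14, so continued fractions gave the smallest 4 whole numbers behind them, taken as multiples of 0.01. Where a ratio was missing (1333 genes), both libraries of the pair were set to 0.01. A factor common to all 4 numbers of a gene is lost, which leaves its ratios unchanged and makes its level too low.

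The file held no counts, so the count test planned for that case was not needed. limma 3.58.1 in R 4.3.3 (empirical Bayes, trend and robust) was fitted on log2(value + 1) of the 12135 genes kept, without scaling or covariates, with Benjamini-Hochberg adjustment. A gene under 1 in both libraries of a group passed the filter only where the other group was high. This held for Fmod, Acan, Gpc2 and Adamts4, under 1 in WT hearts, and for Prg4, under 1 in Klf9 KO hearts. Krt19, Ccnb1, Cdk1 and Aurkb, under 1 in WT hearts, and some genes counted but not named were kept in the same way. The filter fixed the direction of all such genes. Gpc3, Upk3b and Msln, each with 1 WT value under 1, passed only with at least 1 Klf9 KO value of 1 or more. The fit was tested on simulated data of 12135 genes, 200 of them changed. It recovered 94% of the 2-fold and 100% of the 4-fold changes, with 20 false calls among the unchanged genes. The simulated noise was drawn from the variances of the same fit, and far fewer genes were changed than were called here. The simulation therefore does not tell how many of the calls made here are false. Named were all 10 genes, Klf9, up to 2 genes of the lowest p in each direction from each of 7 related lists, and, for marker lists, at most the 2 highest. Outside this rule, Esr1, Tnni1, the Y-linked genes, Col1a1, Hspg2, the neighbours on the chromosome and further markers were named with results of these data known. Naming a gene for its low p fixed that its groups lie apart. The members and lists were chosen with earlier results of these data known. Alternatives were scaling by RLE or by upper quartiles, no filter or a minimum value of 5, a pseudocount of 0.1, non-robust moderation, leaving out each library and a replicate block. Python 3.11.15, numpy 2.4.6, pandas 2.3.3 and matplotlib 3.10.9 were used.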

Additional observations from a re-analysis of the deposited data

How the results depend on the processing

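Gpc3, Fmod and Vcan kept their direction under every alternative that could be fitted (Fmod was not tested with a minimum value of 5), and Gpc3 and Fmod passed in each of these. Without the filter 0 of the 10 proteoglycan genes fell (limma), with 1 at an unadjusted p below 0.05, as Dcn had an adjusted p of 0.0599 with its log2 fold change of -1.16 as before. Over all 17485 genes 3225 were higher and 1808 lower without the filter. With a minimum value of 5, 19 of the 44 related genes then tested were higher, or 43.2%, against 30 of 66, or 45.5%, with the main filter. Over all genes 2411 were higher and 1617 lower at that minimum. How many genes were tested in all at that minimum is not given here, so the 43.2% has no share of all genes beside it. Leaving out each library in turn gave 1859 to 4327 higher and 1100 to 3261 lower genes of all tested, 2 to 4 higher and 0 to 3 lower proteoglycan genes, and 22 to 34 higher and 7 to 11 lower genes of the related lists. The sign of Lum reversed without Klf9 KO replicate 2 and without WT replicate 2, and that of Aspn without WT replicate 1, and the cause was not tested. The log2 fold change ranged from -0.49 to 0.38 for Lum (0.08 without Klf9 KO replicate 2) and from -0.03 to 1.22 for Aspn when libraries were left out. Ecm2, which did not pass, had log2 fold changes of -0.06 after RLE and -0.04 after upper quartile scaling, and of -0.07 to 0.19 when libraries were left out. With the young set less the mature set, the difference was 1.51 to 2.49 when libraries were left out, 2.06 after RLE or upper quartile scaling, 2.46 with a pseudocount of 0.1 and 2.63 without Hapln1, an alternative chosen after seeing the data.

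The labels do not say that equal replicate numbers mark a shared source, and the deviations of same-numbered libraries had a correlation of -0.0355 across 12135 genes. With the replicate block 4 proteoglycan genes were higher and 2 lower, as Aspn (adjusted p = 0.0200) and Ogn (adjusted p = 0.00270) passed in limma. With 2 libraries in each group and no counts, small differences such as those of Bgn and Prelp cannot be placed.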
